A study of Mus musculus with 12 samples.

Results

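Mouse eggs assemble a protein complex beneath the cell membrane, the subcortical maternal complex, and the 9 genes described here encode its core (Nlrp5, Ooep, Tle6 and Khdc3), proteins that associate with it or share its function (Padi6, Zbed3 and Nlrp4f) and further oocyte proteins of the NLRP family (Nlrp2 and Nlrp14). They were taken by name from a table of 24062 genes, and all 9 passed the filter on low counts that left 9935 genes tested. RNA was measured in oocytes of female mice (Mus musculus) fed a high-fat, high-calorie diet (HFD) or the control diet (CD) for 9 weeks. The labels give no strain, age or genotype. They use 1 product code for the CD and, marked as modified, for the HFD, so the make-up of the CD is uncertain. All females, those of the HFD group included, ate the CD during mating, the males were vasectomized, and oocytes were isolated at day 0.5 after mating. Each of the 6 HFD and 6 CD libraries came from a pool of 4 oocytes, so 1 value is an average over a pool. The labels give 6 females per diet without tying pools to females, and p-values therefore reflect only how far these pools scatter, which may in part be technical. The comparison asks which messages of the egg differ after the HFD.

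In the mouse, the messenger RNAs of this complex build up while the oocyte grows, and an ovulated egg lives on stored messages because its genome is silent. NLRP5 (also called MATER), OOEP (FLOPED), TLE6 and KHDC3 (FILIA) bind one another, and mouse embryos whose mothers lack Nlrp5, Ooep or Tle6 stop at early cleavage. PADI6 is needed for the cytoplasmic lattices, fibrous structures that fill the egg cytoplasm. Protein levels were not measured here.

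Gene counts summed to 8409491 to 13793598 per HFD library and 8556396 to 10477316 per CD library, and the 9 genes took 0.65% to 1.58% of them in HFD and 1.24% to 2.26% in CD, most of it Zbed3 in each library but HFD replicate 3. Among oocyte genes, Gdf9, a growth factor, held 556 to 9642 CPM (counts scaled to library size with TMM factors) in HFD and 543 to 7953 CPM in CD. Bmp15, its relative, held 241 to 1010 CPM in HFD and 489 to 1880 CPM in CD. Zp3, of the zona pellucida, held 3942 CPM in HFD replicate 3, 11.97 to 195.5 CPM in the other HFD pools and 11.0 to 116 CPM in CD. A list of 22 cumulus and granulosa markers summed to 28.9 to 61.6 CPM in HFD and 46.3 to 92.8 CPM in CD, with Amh, Ptx3, Areg, Btc and Amhr2 at 0 in all libraries. Others were present, such as Cyp19a1 at 14.9 to 42.8 CPM in HFD and 25.7 to 52.3 CPM in CD. Nr5a2 held 4.88 to 19.6 CPM in HFD and 6.43 to 11.6 CPM in CD, and Cyp11a1 reached 6.32 CPM in HFD and 49.4 CPM in CD. Some libraries stand apart. Every count in HFD replicates 1, 2, 4 and 6 was even, which no CD library shows. If reads were tallied 2 times there, their printed counts and totals are too high by that factor, which was not tested. Halving them left the log2 fold change of Khdc3 at 3.57 and that of Nlrp4f at −1.02. HFD replicates 1 and 2 and CD replicates 2 and 4 held 3.84 to 9.40 CPM of Mos, the kinase of metaphase arrest, against 146 to 1702 CPM in the other 8 libraries. HFD replicate 3 had a count in 14755 genes, against 12229 to 13052 in the other libraries. It had the highest value of the 12 libraries in 22.6% of tested genes. Values without these libraries are given where they move a result.

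None of the 9 genes differed between the diets at an adjusted p under 0.05 (edgeR quasi-likelihood test, adjusted p of 0.0996 to 0.933), and neither did any other gene (0.0% of those tested; at an unadjusted p under 0.05, 22.3%). The values nevertheless behaved differently from gene to gene. Ooep, Tle6 and Khdc3 varied widely from pool to pool, and Nlrp4f and Zbed3 were lower in most HFD pools. Over all pools, Nlrp5, Padi6, Nlrp2 and Nlrp14 gave no difference beyond the spread. Nlrp5 and Padi6 were nevertheless below the CD median in 5 of 6 HFD pools, all but replicate 3. Without that pool their log2 fold changes were −1.04 and −0.99 (edgeR, adjusted p = 0.153 and 0.235). At an unadjusted p under 0.05, Khdc3 was higher and Zbed3 and Nlrp4f were lower, 1 and 2 of the 9 genes, against 13.4% and 8.89% of all genes tested. DESeq2 called Nlrp4f lower (adjusted p = 0.0442), where it called 7.42% of the genes it tested (2.46% lower and 4.96% higher), and gave no p for Khdc3 and Tle6. For no member were all HFD pools on 1 side of all CD pools, which held for 2.45% of tested genes (1.28% with HFD lower and 1.17% with HFD higher). Between the 2 HFD and 6 CD libraries that hold odd counts, edgeR called Khdc3 alone of the 9 genes, with 4.03% of all genes called there. That fit rests on HFD replicates 3 and 5. CPM gives a gene's share of its library and not its RNA per oocyte. A pool holding oocytes that are not intact and a changed share in every oocyte cannot be told apart.

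**Figure D1:**
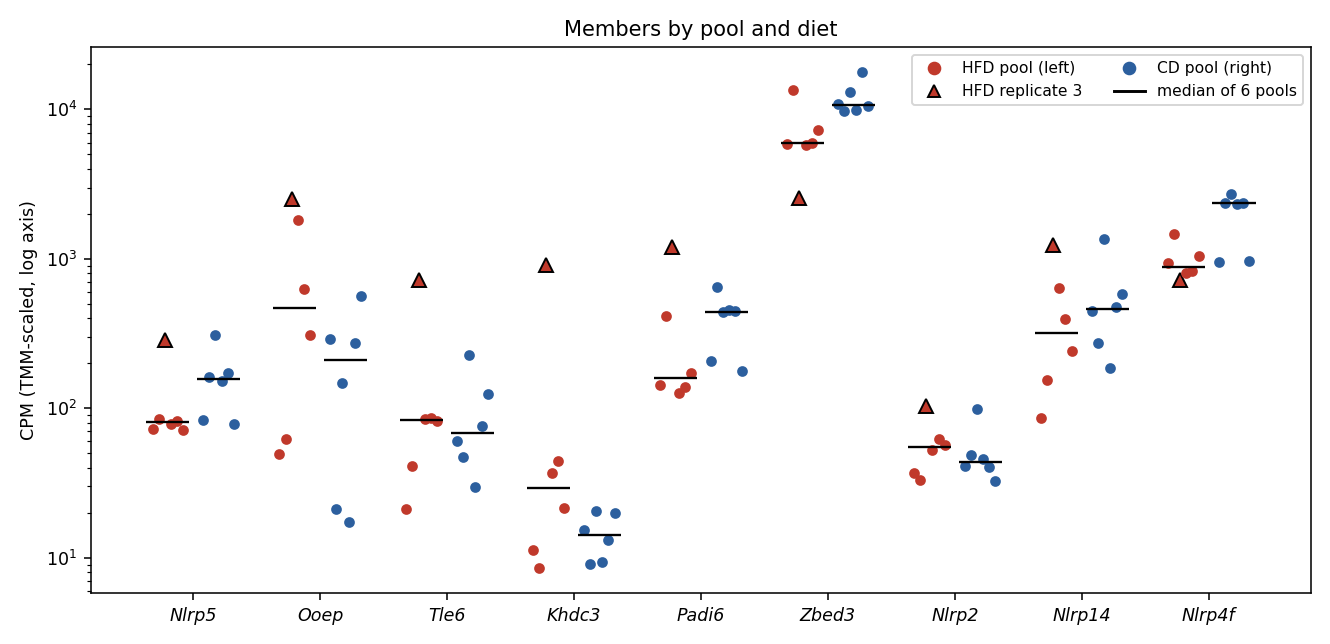
CPM of each gene on a log axis, with the 6 HFD pools to the left and the 6 CD pools to the right, HFD replicate 3 as a triangle and the median of each diet as a line. The diets overlap for every gene, and HFD replicate 3 is the highest of the 12 libraries for Ooep, Tle6, Khdc3, Padi6 and Nlrp2 and the lowest for Zbed3 and Nlrp4f.

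The core genes come first. Their promoters are shown because the 4 messages encode proteins of 1 complex yet differed in pattern between pools. Each run covers 250 bases before and 50 after the start that RefSeq annotates (GRCm38.p6, the assembly of mm10), read 5′ to 3′ on the gene's strand. For Nlrp5 and Tle6, which have more than 1 start, it is the start nearest to the GENCODE gene start. The Khdc3 run lies wholly inside the gene as GENCODE annotates it, from 73101836, so it is not upstream of that start. Capitals mark E-boxes, CANNTG on either strand, the class of motif that the oocyte transcription factor FIGLA binds. Figla itself did not pass the filter, with 54.7 CPM in HFD replicate 3 and at most 0.883 CPM in the other libraries.
Nlrp5 (chr7:23385639-23385938, + strand): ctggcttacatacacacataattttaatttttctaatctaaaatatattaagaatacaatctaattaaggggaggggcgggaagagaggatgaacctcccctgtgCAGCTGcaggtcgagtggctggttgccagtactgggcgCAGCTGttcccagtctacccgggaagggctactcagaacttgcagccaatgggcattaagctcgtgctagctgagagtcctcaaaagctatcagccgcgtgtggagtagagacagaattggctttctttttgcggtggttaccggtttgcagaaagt
Ooep (chr9:78378539-78378838, - strand): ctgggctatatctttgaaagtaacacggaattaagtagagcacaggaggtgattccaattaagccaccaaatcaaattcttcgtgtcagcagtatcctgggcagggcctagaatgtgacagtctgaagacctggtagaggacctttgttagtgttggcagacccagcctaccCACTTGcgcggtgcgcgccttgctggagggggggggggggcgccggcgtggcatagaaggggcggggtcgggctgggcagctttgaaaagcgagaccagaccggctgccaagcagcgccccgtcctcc
Tle6 (chr10:81600851-81601150, - strand): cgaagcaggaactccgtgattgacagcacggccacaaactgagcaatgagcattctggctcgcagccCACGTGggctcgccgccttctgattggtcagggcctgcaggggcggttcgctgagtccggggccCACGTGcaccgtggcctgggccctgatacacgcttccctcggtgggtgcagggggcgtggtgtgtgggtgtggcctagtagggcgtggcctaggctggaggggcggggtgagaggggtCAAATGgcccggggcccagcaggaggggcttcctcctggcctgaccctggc
Khdc3 (chr9:73102148-73102447, + strand): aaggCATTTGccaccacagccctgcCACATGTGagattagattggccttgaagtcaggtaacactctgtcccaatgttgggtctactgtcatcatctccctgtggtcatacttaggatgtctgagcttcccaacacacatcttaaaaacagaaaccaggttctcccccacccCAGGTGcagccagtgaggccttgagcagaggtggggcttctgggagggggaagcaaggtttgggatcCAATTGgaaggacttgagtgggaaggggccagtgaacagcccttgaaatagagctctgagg
The windows held 2 E-boxes for Nlrp5, 1 for Ooep, 3 for Tle6 and 5 for Khdc3, of which a pair overlap. Of all 32851 promoter windows of this length, 72.3% held at least 1, so the match does not set these genes apart. The Ooep window also held TAATTG on 1 strand, the letters of an element bound by NOBOX, another oocyte factor, as did 8.0% of all windows, and none of the 4 held TATAAA, which 8.32% did.

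Nlrp5 (chromosome 7, 23385889 to 23441922, mm10, GENCODE M21, + strand) encodes the NLR protein MATER, a maternal-effect factor in mice. It had a lowest value of 71.5, a median of 80.3 and a highest value of 287 CPM in HFD, against 78.6, 158 and 311 CPM in CD. The HFD pools other than replicate 3 were close together, at 71.5 to 84.9 CPM, a level that CD replicates 1 and 6 shared with 83.8 and 78.6 CPM. The remaining CD pools lay at 153 to 311 CPM. On the log2 scale HFD minus CD was −0.51 ± 0.43 (SE), with 5 of 6 HFD pools below the CD mean (edgeR, adjusted p = 0.512). Without HFD replicate 3 it was −1.04 (edgeR, adjusted p = 0.153).

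Ooep (chromosome 9, 78376109 to 78378725, − strand) encodes a small protein with an RNA-binding KH fold. Its level ran from 49.8 over a median of 469 to 2503 CPM in HFD, and from 17.3 over a median of 211 to 565 CPM in CD. The 144.6-fold range over the 12 libraries was the widest of the 9 genes, and its SD within diets of 2.25 on the log2 scale was at percentile 99.1 of the genes tested. HFD replicates 3, 4 and 5 lay above every CD pool. The lowest 4 libraries were HFD replicates 1 and 2, with 49.8 and 62.0 CPM, and CD replicates 2 and 4, with 21.1 and 17.3 CPM. These are the libraries with the least Mos, and Ooep was at least 148 CPM in each of the other 8. The log2 fold change was 2.04 ± 0.98, with 4 of 6 HFD pools above the CD mean (edgeR, adjusted p = 0.236). Without those 4 libraries it was 2.07 (edgeR, adjusted p = 0.130), and without HFD replicate 3 it was 1.40.

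Tle6 (chromosome 10, 81590904 to 81601073, − strand) encodes a relative of the Groucho corepressors, and in the egg it is a partner of NLRP5 and OOEP. It had a lowest value of 21.1, a median of 83.8 and a highest value of 723 CPM in HFD, against 29.6, 68.7 and 226 CPM in CD. HFD replicate 3 held 3.20 times as much as the next library, CD replicate 3. It exceeded the next library by over 3 times for Tle6 and Khdc3, 2 of the 9 genes, against 6.96% of tested genes. The libraries low in Mos were again the lowest, at 21.1 to 47.2 CPM, with the other 8 at 60.7 to 723 CPM. The difference on the log2 scale was 0.88 ± 0.76, although 1 of 6 HFD pools lay above the CD mean (edgeR, adjusted p = 0.524). It turned to −0.58 without HFD replicate 3, so no direction is read from it.

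Khdc3 (chromosome 9, 73101836 to 73104438, + strand) encodes the KH-domain protein FILIA, whose maternal loss in mice disturbs chromosome segregation in the embryo. It ran from 8.47 over a median of 29.1 to 904 CPM in HFD, and from 9.03 over a median of 14.2 to 20.4 CPM in CD. HFD replicate 3 alone held 20.3 times the next library, and HFD replicates 4, 5 and 6, at 36.9, 44.5 and 21.4 CPM, also lay above every CD pool. HFD replicates 1 and 2, at 11.2 and 8.47 CPM, did not. HFD minus CD was 3.56 ± 1.06 on the log2 scale, with 4 of 6 HFD pools above the CD mean (edgeR, adjusted p = 0.0996). Without HFD replicate 3 it was 0.75 (edgeR, adjusted p = 0.408), and without the libraries low in Mos 3.93 (edgeR, adjusted p = 0.133). Of the 50-base words of its longest transcript, 42.8% also occur in transcripts of other genes, chiefly Gm20509, an annotated gene on the same strand that has no row in the count table, so its counts are uncertain.

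All libraries low in Mos were below the other 8 for Ooep, Tle6 and Khdc3, 3 of the 9 genes, a pattern found in 6.97% of tested genes. The opposite, those libraries above the other 8, was seen in 0 of the 9 genes and in 3.63% of tested genes. The part of whatever sets these libraries apart in the diet comparison was not tested beyond leaving them out.

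**Figure D2:**
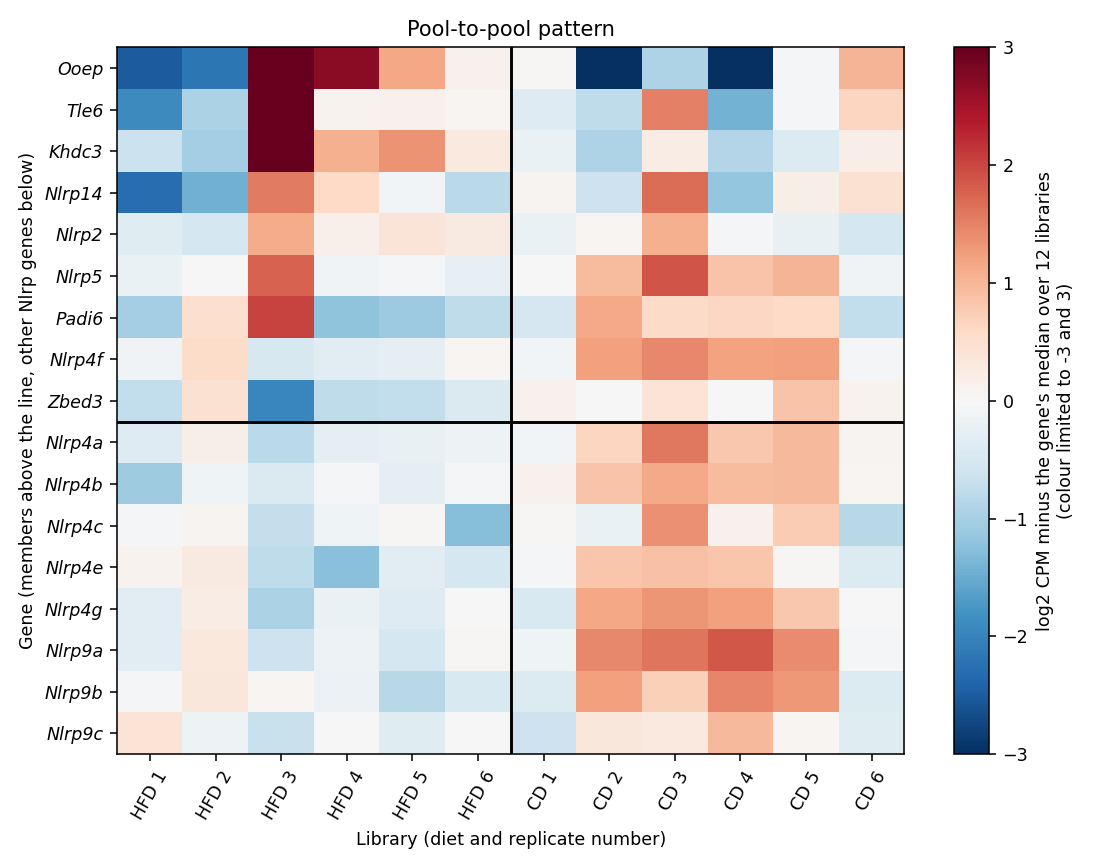
Log2 CPM of each gene minus its median over the 12 libraries, HFD libraries to the left of the line and CD libraries to the right, with the 9 genes above and 8 other Nlrp genes below. Ooep, Tle6 and Khdc3 are low in HFD 1, HFD 2, CD 2 and CD 4, while Nlrp5, Padi6, Nlrp4f and most other Nlrp genes are low in CD 1, CD 6 and most HFD libraries.

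Ratios of core genes within 1 library do not depend on how libraries are scaled, and 6 were compared between the diets. Khdc3 over Nlrp5 was −1.35 ± 1.74 in HFD and −3.38 ± 0.92 in CD (log2 ratio of counts, SD, n = 6 each), a difference of 2.03. Every HFD pool was above the mean of CD and 4 were above every CD pool (two-sided exact permutation test, p = 0.0238; adjusted over the 6 ratios, 0.0714). Khdc3 over Tle6 was −1.16 ± 0.91 in HFD and −2.45 ± 0.62 in CD, a difference of 1.29, again with each of the HFD pools above the mean of CD (exact permutation test, p = 0.0152; adjusted, 0.0714). Without HFD replicate 3 the differences were 1.43 and 0.99 (exact permutation test, adjusted p = 0.149 each), and without the libraries low in Mos 2.50 and 1.71 (adjusted p = 0.0857 each in an exact permutation test). Of the 12 libraries left out in turn, HFD replicate 2 was the one without which both passed, with 2.42 and 1.51 (exact permutation test, adjusted p = 0.039 each). Khdc3 over Ooep differed by −0.23, within the spread (exact permutation test, p = 0.801). Ooep over Nlrp5 differed by 2.26 and Ooep over Tle6 by 1.52 (exact permutation test, adjusted p = 0.175 each), and Tle6 over Nlrp5 by 0.74 (adjusted p = 0.299). So no ratio differed beyond the threshold, and those with the smallest p had Khdc3 on top.

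**Figure D3:**
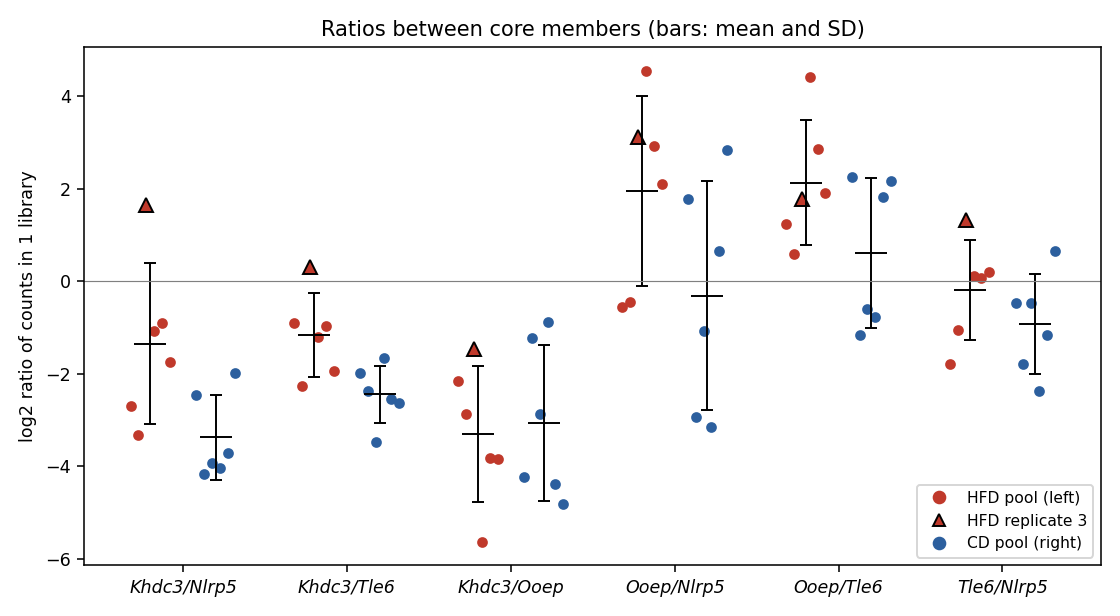
Log2 ratio of the counts of 2 core genes in each library, HFD to the left and CD to the right, with the mean and SD per diet as bars and HFD replicate 3 as a triangle. For Khdc3 over Nlrp5 and Khdc3 over Tle6, 4 HFD pools lie above every CD pool, and for each ratio the diets overlap.

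Among the proteins that join the complex, PADI6 is a peptidylarginine deiminase of the egg. Padi6 (chromosome 4, 140727355 to 140742643, − strand) had a lowest value of 127, a median of 159 and a highest value of 1200 CPM in HFD, against 177, 441 and 643 CPM in CD. HFD replicates 1, 4, 5 and 6 lay below every CD pool, HFD replicate 2, at 418 CPM, lay among them, and HFD replicate 3 lay above all of them. The log2 fold change of −0.10 ± 0.56 averages over these (edgeR, adjusted p = 0.933), and without HFD replicate 3 it was −0.99 (edgeR, adjusted p = 0.235).

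ZBED3 is a zinc-finger protein that binds Axin, and in the mouse egg it takes part in the complex. Zbed3 (chromosome 13, 95323612 to 95337841, + strand) ranked 12 among all tested genes by mean CPM. It had a lowest value of 2557, a median of 5917 and a highest value of 13432 CPM in HFD, against 9722, 10713 and 17745 CPM in CD. Every HFD pool except replicate 2, which lay among the CD pools, was below every CD pool. HFD minus CD was −0.81 ± 0.33 on the log2 scale, with 5 of 6 HFD pools below the CD mean (edgeR, adjusted p = 0.168). It was −0.65 without HFD replicate 3, the lowest pool, and −1.28 without the libraries low in Mos (edgeR, adjusted p = 0.222 and 0.130).

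NLRP4F is an NLR protein that associates with the complex and, in the mouse, is needed for the normal placing of organelles in the egg. Nlrp4f (chromosome 13, 65177111 to 65205977, − strand) had a lowest value of 718, a median of 881 and a highest value of 1467 CPM in HFD, against 946, 2348 and 2733 CPM in CD. CD replicates 1 and 6 were at 946 and 968 CPM, inside the HFD range, while the remaining CD pools were at 2334 to 2733 CPM, above all HFD pools. HFD minus CD was −1.01 ± 0.31 on the log2 scale, with 6 of 6 HFD pools below the CD mean (edgeR, adjusted p = 0.104), and it stayed between −1.17 and −0.92 when each library was left out. Its SD within diets of 0.56 on the log2 scale was at percentile 25.9 of the genes tested. By diet the SD was 0.366 in HFD and 0.703 in CD, where the pools split.

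Zbed3 and Nlrp4f were also the members whose longest annotated transcript held the letters of a cytoplasmic polyadenylation element, TTTTAT or TTTTAAT on the transcript strand, in its last 100 bases, as 16.7% of 21733 protein-coding genes did. Such elements govern the tail length of stored messages in oocytes. They are shown because these were the members lower in HFD at an unadjusted p under 0.05, with the last match in capitals.
Zbed3: tttaataaacTTTTATttatctgc
Nlrp4f: ctgttttgtgTTTTATattaaagaat
In Zbed3 an earlier TTTTAAT, whose first base lies just outside the run shown, overlaps an AATAAA signal. The same search found no match in Mos, and a missing match is not taken to mean that a message lacks such an element. Matches in 2 genes are a description, and whether these letters act in either message was not tested.

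Of the remaining oocyte NLR genes, Nlrp2 (chromosome 7, 5298547 to 5351035, − strand), a maternal-effect gene in mice, had a lowest value of 33.0, a median of 54.7 and a highest value of 103 CPM in HFD, against 32.6, 43.5 and 98.5 CPM in CD. Replicate 3 was the highest pool in each diet. The diets differed by 0.17 ± 0.35 on the log2 scale, or −0.093 without HFD replicate 3 (edgeR, adjusted p = 0.813 and 0.913). Nlrp14 (chromosome 7, 107166990 to 107198102, + strand), which mouse females need for fertility, had a lowest value of 85.6, a median of 320 and a highest value of 1245 CPM in HFD, against 187, 460 and 1351 CPM in CD. Replicate 3 was again the highest in each diet, and the ranges overlapped nearly throughout. Its log2 fold change was −0.26 ± 0.60, and −0.86 without HFD replicate 3 (edgeR, adjusted p = 0.831 and 0.441).

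Read per kilobase of annotated exon, so that genes can be set side by side, the messages differed over a wide range. Zbed3 stood at 3059 ± 1614 CPM per kilobase in HFD and 5381 ± 1373 in CD, and Nlrp4f at 250 ± 69.8 in HFD and 504 ± 203 in CD (SD, n = 6 each). Zbed3 was above Nlrp4f in all 12 libraries, by 3.50 ± 0.55 on the log2 scale, and Nlrp4f above Padi6 in 11 of 12. Over both diets, Padi6, Nlrp14 and Ooep followed, and neighbours among them did not differ beyond their spread. By diet their order changed, since Ooep was by median above Nlrp14, at 90.4, and Padi6, at 62.7 CPM per kilobase, in HFD, and below Padi6, at 174, and Nlrp14, at 130 CPM per kilobase, in CD. Ooep was above Tle6 by 1.91 ± 1.63 on the log2 scale over the 12 libraries, and by 1.29, within the SD, when the longest transcript gave the length. Then came Tle6 and Nlrp5, which did not differ beyond their spread. By median they changed places between the diets, at 27.1 and 16.6 CPM per kilobase in HFD and 22.2 and 32.6 in CD. Their means were 56.1 ± 87.7 and 23.3 ± 17.6 CPM per kilobase in HFD and 30.5 ± 23.4 and 33.1 ± 17.3 in CD. Nlrp2 and Khdc3 were last, and Khdc3 stood at 83.5 ± 175 CPM per kilobase in HFD, most of it from replicate 3, and 7.08 ± 2.43 in CD. The core genes were thus not at equal levels: by median, Ooep was at 219 CPM per kilobase in HFD and 98.5 in CD, while Khdc3 was at 14.2 in HFD and 6.92 in CD.

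Most of the other Nlrp genes tested had fold changes near that of Nlrp4f, and none passed the threshold by edgeR. A list of 16 other Nlrp genes had 15 in the table, of which 2 had no count, and 8 passed the filter, all of the Nlrp4 and Nlrp9 groups. All 8 were below 0, with a median log2 fold change of −1.0, against 0.04 over all genes tested, of which 4787 of 9935 were below 0. They ran from −0.29 for Nlrp9c (edgeR, unadjusted p = 0.327) and −0.66 for Nlrp4c (unadjusted p = 0.134) to −1.40 for Nlrp9a. By edgeR 0 passed the threshold, 6 had an unadjusted p under 0.05 and were lower, against 8.89% of all genes, and DESeq2 called 4 lower, against 2.46%. Genes of this family resemble one another and are expressed in the same cells, so they are not independent. Nlrp9a had a lowest value of 227, a median of 298 and a highest value of 437 CPM in HFD, against 322, 947 and 1285 CPM in CD. It differed by −1.40 ± 0.35 on the log2 scale (edgeR, adjusted p = 0.0913). Nlrp4b was lower in every HFD pool, at 133 to 268 CPM, than in any CD pool, at 289 to 613 CPM, a difference of −1.05 ± 0.27 on the log2 scale (edgeR, adjusted p = 0.0913). Such a separation with HFD lower was seen in 1 of these 8 genes and in 1.28% of all genes tested. None of the 50-base words of the longest Nlrp4b transcript occurs in a transcript of another gene. For Nlrp4f 7.08% do, and for Nlrp9a 6.54%, mostly in Nlrp9b.

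**Figure D4:**
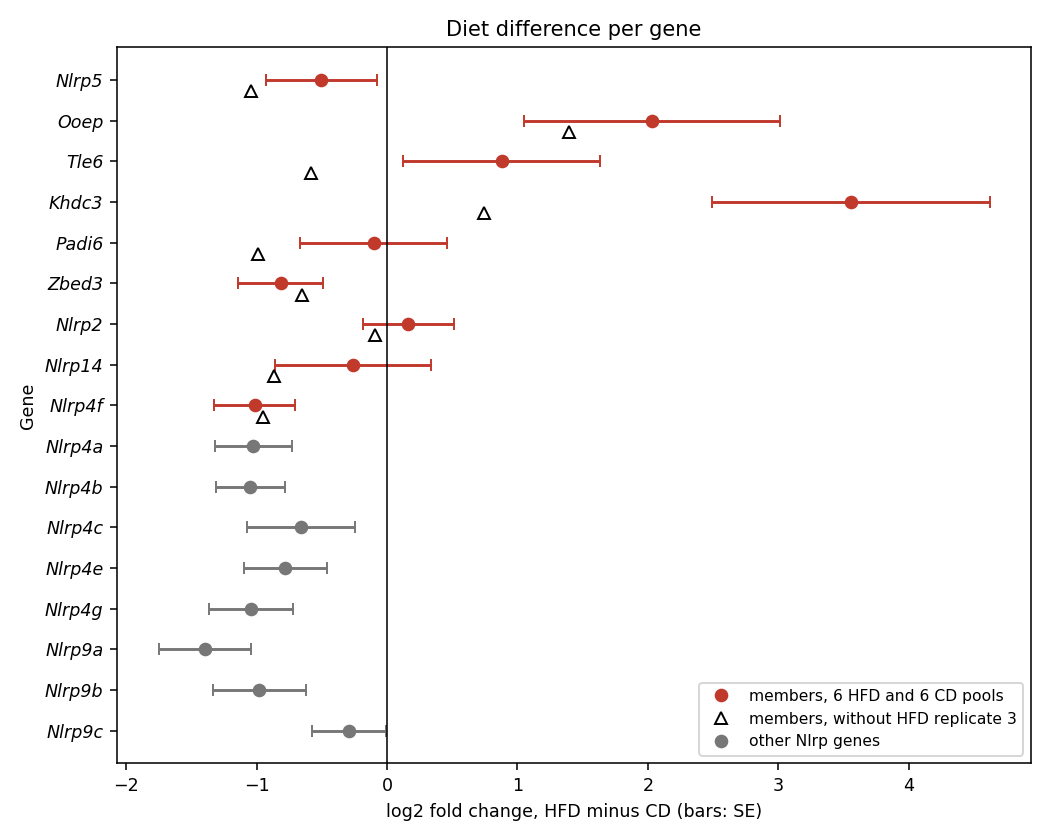
Log2 fold change, HFD minus CD, with SE from edgeR for the 9 genes and for the 8 other Nlrp genes tested, and the value of the 9 genes without HFD replicate 3 as open triangles. The 8 other Nlrp genes all lie below 0, Nlrp4f lies at −1.01, and the values of Khdc3 and Tle6 are 3.56 and 0.88 with HFD replicate 3 and 0.75 and −0.58 without it.

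The split among CD pools seen in Nlrp4f, which was noticed in its values, recurred in these relatives. CD replicates 1 and 6 were both below CD replicates 2 to 5 for Nlrp5, Padi6 and Nlrp4f among the 9 genes and for 7 of the 8 other Nlrp genes, against 11.0% of tested genes. For Nlrp9a the CD replicates 1 and 6 held 322 and 341 CPM, and the remaining CD pools held 934 to 1285 CPM. What sets these 2 pools apart was not tested.

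Relatives of the other members gave 0 calls by edgeR as well. Of 4 KH-domain relatives of Ooep and Khdc3, all tested, 0 passed. Dppa5a, a pluripotency-associated KH-domain gene, held 676 CPM in HFD replicate 3 and 2.03 to 30.9 CPM in the other HFD pools, against 2.20 to 7.05 CPM in CD, and it differed by 4.93 ± 1.31 on the log2 scale, or 1.51 without HFD replicate 3 (edgeR, adjusted p = 0.0913 and 0.221). Khdc1a differed by 0.52 ± 0.37 (edgeR, adjusted p = 0.428). Of 5 other Groucho genes 3 were tested and 0 passed, with Tle4 at 0.25 and Tle1 at −0.22 (edgeR, adjusted p = 0.681 and 0.828). The 4 other deiminases, Padi1 to Padi4, summed to 0.883 to 2.99 CPM in HFD and 0.662 to 2.10 CPM in CD and did not pass the filter, so Padi6 was the family member measured. Among 20 partners of the complex's proteins (cofilin regulators, Axins, protein kinase A subunits, 14-3-3 proteins, Uhrf1 and Dnmt1), 0 passed, 7 were above 0 and 13 below, with a median of −0.16. Prkaca, the catalytic subunit of protein kinase A, had −0.94 ± 0.37 and Ywhae, a 14-3-3 protein, −0.51 ± 0.21 (edgeR, adjusted p = 0.157 and 0.179). Among 16 other maternal-effect genes 15 were tested and 0 passed by edgeR, with 5 above 0 and 10 below and a median of −0.16. Npm2, the egg's histone chaperone, had 1.25 ± 0.34 and Hsf1, a heat-shock transcription factor, −1.30 ± 0.36 (edgeR, adjusted p = 0.0929 each). DESeq2 called both, Npm2 among the 4.96% of genes it called higher and Hsf1 among the 2.46% lower. With a trend on transcript length taken out, Npm2 was at 0.25 (edgeR, adjusted p = 0.683).

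Genes outside the list with the most similar pattern were found by the root mean square difference of log2 CPM over the 12 libraries, each gene centred on its mean. For Nlrp5, whose own SD was 0.745, they were Mtmr7, a phosphoinositide phosphatase (0.281), D10Wsu102e (0.364) and Smarcal1, a DNA-annealing helicase (0.382). For Ooep, with an SD of 2.22, they were Psma5, a proteasome core subunit (0.74), Gtf2h5, a subunit of TFIIH (0.758), and Lsm5, of the LSm ring (0.806). For Tle6, with an SD of 1.29, they were Slc11a2, a metal transporter (0.516), Supt3 (0.523) and Gm16062 (0.548). For Khdc3, with an SD of 1.75, they were Oca2 (0.518), Rpl5, a ribosomal protein gene whose reads pseudogenes may share (0.522), and Gm15698 (0.528). The last 3, like Khdc3, were far highest in HFD replicate 3, where Rpl5 held 532 CPM against at most 22.9 CPM elsewhere. The closest member was Padi6 for Nlrp5 (0.543), Khdc3 for Ooep (1.45), Nlrp14 for Tle6 (0.586) and Tle6 for Khdc3 (0.954). The nearest genes were picked from all tested genes outside the list, and the closest member from the few other members. Their distances therefore do not show whether members are less alike than other genes.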

How the data were processed

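Per the labels' protocols, cDNA of pools of 4 oocytes was made with SMART-Seq v4 and tagmented with Nextera XT, which does not mark strand. The authors deposited raw counts per gene symbol. Per the submitters' processing notes, the tools were STAR, HTSeq 1.0.0 and DESeq2 1.0.19 on mm10, and neither names an annotation or counting options. The 5 tallies of unassigned reads were left out. They held 66.5% to 72.9% of reads in HFD, with the largest share in HFD replicate 3, and 62.3% to 66.6% in CD. The bearing of this difference on the comparison was not tested. The diets were compared with edgeR 4.0.16 (R 4.3.3; TMM, default filter, robust quasi-likelihood F-test, group only), with Benjamini-Hochberg adjustment over 9935 genes and a threshold of 0.05. SEs came from fold change and F. Tested on simulated data, this comparison recovered 47.9% of changes of 2 and 95.7% of changes of 3 (log2; 9758 genes). The simulation gave every gene the same dispersion and had no pool that stands apart. For genes as variable as Ooep, Tle6 and Khdc3, recovery may therefore be lower. Log2 CPM used a prior count of 2, and ratios 0.5 added to each count. Lengths, coordinates and transcripts came from GENCODE M21 and promoters from RefSeq, which had 8 of the 9 genes (not Nlrp14). Replicate numbers were not taken to pair libraries. Genes named outside the 9 are the 2 with the smallest p of each related list and the 3 nearest in pattern to each core gene. Any other was chosen after its values were seen. Members and lists were chosen with earlier results of these data known. Alternatives were DESeq2 1.42.0, limma-voom (limma 3.58.1), other scaling, no filter, halved all-even libraries, odd-count libraries, length offsets, the replicate block and left-out libraries. Reads carry no molecular identifiers.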

Additional observations from a re-analysis of the deposited data

Results flagged for a closer look

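In 30 checks of 6 pools each (9 genes and 6 ratios in 2 diets), 6 found a pool far from the others of its diet. The limit is passed in about 1 in 20 checks where values scatter normally. The gene checks used CPM, a scale on which high values stand out more than on log2, so that rate does not apply to them. HFD replicate 3 stood apart from the other HFD pools for Khdc3 (904 CPM, with the next pool at 44.5), Tle6 (723.5 CPM, next 86.3), Nlrp5 (287 CPM, next 84.9) and Padi6 (1200 CPM, next 418). CD replicate 3 stood apart from the other CD pools for Nlrp14 (1351 CPM, next 578) and Nlrp2 (98.5 CPM, next 48.9). None of the core ratios had such a pool, but they were checked on the log2 scale and so are not comparable with the CPM checks.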

How the results depend on the processing

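No gene was called by edgeR with all libraries under any scaling, filter, length offset or the replicate block, or with 1 library left out (0 to 0 genes), whereas DESeq2 called 709 genes, limma-voom 35 and edgeR without the all-even libraries (leaving 2 HFD and 6 CD) 456. The median log2 fold change of all genes was 0.04 with TMM and −0.064 with total counts. Among the odd-count libraries Khdc3 (4.93) and Dppa5a (6.36) passed, and the sign turned for Nlrp5 (0.12), Padi6 (0.66), Nlrp14 (0.49), Tle1 (0.0824) and Khdc3 over Ooep (0.42). Nlrp4f, Nlrp9a, Nlrp4b, Npm2 and Hsf1 passed with DESeq2. Tle6 turned to −0.12 without both replicates 3 and to −0.10 with limma-voom. Without the 4 libraries low in Mos, a choice made after seeing the data, Padi6 turned to 0.41 and Khdc3 over Ooep to 0.38. With the length offset Khdc3 was 2.81, Dppa5a 2.53 and Npm2 0.25 (0.34 with the block), Tle1 turned to 0.10, and with that and the replicate block to 0.19, where Khdc1a was −0.0068. Same-numbered libraries did not consistently deviate together (r of −0.452 to 0.55 across genes, with 2 of 6 HFD libraries closest to their own number). These values do not show that the numbers pair libraries, and they cannot exclude it. The block alone turned no sign. Khdc3 was then 1.25, and the ratios Khdc3 over Nlrp5 and over Tle6 had an adjusted p of 0.281 and 0.188 by exact permutation within numbers. With each library left out, log2 fold changes ran from −1.04 to −0.26 for Nlrp5, 1.40 to 2.55 for Ooep, −0.58 to 1.27 for Tle6, 0.75 to 3.80 for Khdc3, −0.99 to 0.0827 for Padi6, −1.13 to −0.65 for Zbed3, −0.093 to 0.42 for Nlrp2, −0.86 to 0.18 for Nlrp14 and −1.17 to −0.92 for Nlrp4f. Ratios ran from 1.43 to 2.42 for Khdc3 over Nlrp5, 0.99 to 1.51 for Khdc3 over Tle6, −0.60 to 0.24 for Khdc3 over Ooep, 1.70 to 2.89 for Ooep over Nlrp5, 1.06 to 1.84 for Ooep over Tle6 and 0.44 to 1.07 for Tle6 over Nlrp5. The cause of these shifts was not tested. The order of levels per kilobase was the same with the longest transcript as length. The lowest deposited count of any of the 9 genes was 75, in CD replicate 4, and for Khdc3 in HFD replicate 2 it was 92, in a library whose counts are all even.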
